A study of Homo sapiens with 4 samples.

Results

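The epidermal growth factor (EGF) receptor family and its ligands were described in single MCF10A cells, an untransformed human breast epithelial cell line. The members were the 9 genes EGFR, ERBB2, ERBB3, AREG, EREG, TGFA, HBEGF, EPGN and BTC, chosen by gene name from 19577 rows over all plates, and all 9 were counted in each of the 4 plates. MCF10A cells carrying a GFP-tagged histone H2B were seeded as a round patch of 10000 cells on fibronectin and grown for 6 days. The medium of every patch held EGF at 20 ng/ml, which is itself a ligand of EGFR, with horse serum at 5%, insulin at 10 μg/ml, cholera toxin at 100 ng/ml and hydrocortisone at 500 ng/ml. Patches were phototagged with photoactivatable dyes in an outer and a middle band, either 1000 to 1500 μm wide (low resolution) or 250 μm wide (high resolution), and each approach gave 2 plates of 384 wells with 1 sorted cell per well. Which band a well came from was not analysed here, and the comparisons are between plates and along a per-cell score of the epithelial-to-mesenchymal transition (EMT). Differences between the 2 experiments cannot be told apart from the width of the tagged bands, the patch and the library of each. The labels give no dates for the experiments, and MCF10A is 1 line.

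In this receptor family, a secreted ligand binds EGFR or a related receptor, the receptors pair up, and their kinase domains start RAS-MAPK and PI3K signaling. AREG, EREG, TGFA, HBEGF, EPGN and BTC are made as membrane-bound precursors that proteases such as ADAM17 cut free, so that a cell can act on itself or on its neighbors. ERBB2 has no known ligand of its own and acts as a partner, and ERBB3 has little kinase activity of its own and binds neuregulins such as NRG1. In breast epithelium, amphiregulin (AREG) acting through EGFR is known for its part in duct growth, and MCF10A cells need EGF or a related ligand to proliferate.

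The depth allowed the low-count members to be read only in part. The filter of 2000 to 9000 features and under 40% mitochondrial counts left 291 and 271 cells of the low-resolution plates and 291 and 293 of the high-resolution plates. The median cell held 29185 to 39240 unique molecular identifiers (UMIs), each of which stands for 1 captured 3′ end of a transcript, and the high-resolution plates were the deeper ones. Levels are given as counts per 10000 counts of a plate and are not scaled by gene length, because each transcript is counted once at its 3′ end. All 4 plates used the same 384 well barcodes, so a barcode does not tell plates apart. The label was checked against markers. Of 7 basal epithelial markers, 6 reached 20% of cells or more in all plates, with KRT5 in 99.6% to 100% of cells, while TP63 was found in only 2.58% to 4.12%. Of 11 leukocyte, endothelial and fibroblast markers, CD68, PECAM1 and COL1A1 were found in 17.3% to 47.1% of cells and the others were at or near 0, and their part in the results was not tested.

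AREG and 2 other ligand genes lie next to each other on chromosome 4 of GRCh38, all on the plus strand and within 146537 bp from the start of EPGN to the end of AREG. EPGN, which encodes epigen, spans chr4:74308473-74315307, EREG, which encodes epiregulin, spans chr4:74365143-74388751, and AREG spans chr4:74445134-74455009. The gaps between the genes were 49835 bp and 56382 bp, and BTC followed 289749 bp after AREG on the minus strand. Because these neighbors differed in how they moved, the 250 bases upstream of their RefSeq starts are shown (GRCh38.p14, plus strand, at chr4:74308220-74308469, chr4:74364895-74365144 and chr4:74444886-74445135), with capitals at matches to any of 4 motifs searched on both strands.
EPGN: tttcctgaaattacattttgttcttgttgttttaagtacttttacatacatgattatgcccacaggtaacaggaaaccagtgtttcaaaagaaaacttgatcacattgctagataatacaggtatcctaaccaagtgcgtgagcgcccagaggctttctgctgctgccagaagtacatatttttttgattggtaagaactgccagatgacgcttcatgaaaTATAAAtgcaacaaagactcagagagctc
EREG: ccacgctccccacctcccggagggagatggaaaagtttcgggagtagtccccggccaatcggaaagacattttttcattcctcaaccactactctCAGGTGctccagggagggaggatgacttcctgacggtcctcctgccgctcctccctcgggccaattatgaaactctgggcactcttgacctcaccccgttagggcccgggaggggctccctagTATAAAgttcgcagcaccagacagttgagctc
AREG: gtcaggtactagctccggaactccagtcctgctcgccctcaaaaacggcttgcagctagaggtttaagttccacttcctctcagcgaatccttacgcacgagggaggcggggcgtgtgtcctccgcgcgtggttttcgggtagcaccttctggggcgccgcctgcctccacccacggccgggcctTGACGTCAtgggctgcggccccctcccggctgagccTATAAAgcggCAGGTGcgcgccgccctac
The motifs were the cAMP response element TGACGTCA, the AP-1 site TGANTCA, the E-box CAGGTG bound by EMT transcription factors such as SNAI2 and ZEB1, and the TATA box TATAAA. All 3 windows held a TATA box, 29, 32 and 29 bases before the start in EPGN, EREG and AREG. The cAMP response element was found in AREG alone, 65 bases before the start, and the E-box in AREG at 19 and in EREG at 155 bases before it, while no window held the AP-1 site. Among 35116 RefSeq windows of this length, 1.65% held the cAMP response element, 6.57% the AP-1 site, 17.5% the E-box and 10.7% the TATA box. These matches are letters in a window and say nothing of binding in these cells.

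AREG was the most abundant member, and the ligands as a group were counted more often than the receptors (see the plot of levels by plate). AREG stood at 2.76 and 2.95 counts per 10000 on the low-resolution side, against 6.23 and 9.60 for the high-resolution plates. EPGN stood at 1.45, 1.44, 0.938 and 1.12 in the same order, below AREG and above every other member in each plate. EGFR was the leading receptor, at 0.779, 0.751, 0.754 and 0.628, with a mean of 0.728 ± 0.068 (SD, n = 4 plates). The other receptors were low, with ERBB3 at 0.274, 0.278, 0.163 and 0.117 and ERBB2 at 0.120, 0.123, 0.0857 and 0.0746.

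The remaining ligands were well below AREG. HBEGF, which encodes heparin-binding EGF-like growth factor, stood at 0.328, 0.536, 0.606 and 0.831 and was above EGFR in the second high-resolution plate, so that the order of the pair was not fixed. EREG stood at 0.265, 0.205, 0.321 and 0.401, and TGFA, which encodes transforming growth factor alpha, at 0.280, 0.302, 0.206 and 0.335, and these neighbors in the order changed places between plates. TGFA was above ERBB3 in every plate, with means of 0.281 ± 0.055 and 0.208 ± 0.081 (SD, n = 4), but by little in the low-resolution plates. BTC, which encodes betacellulin, was close to the limit of detection with 13, 22, 21 and 26 UMIs per plate.

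**Figure D1:**
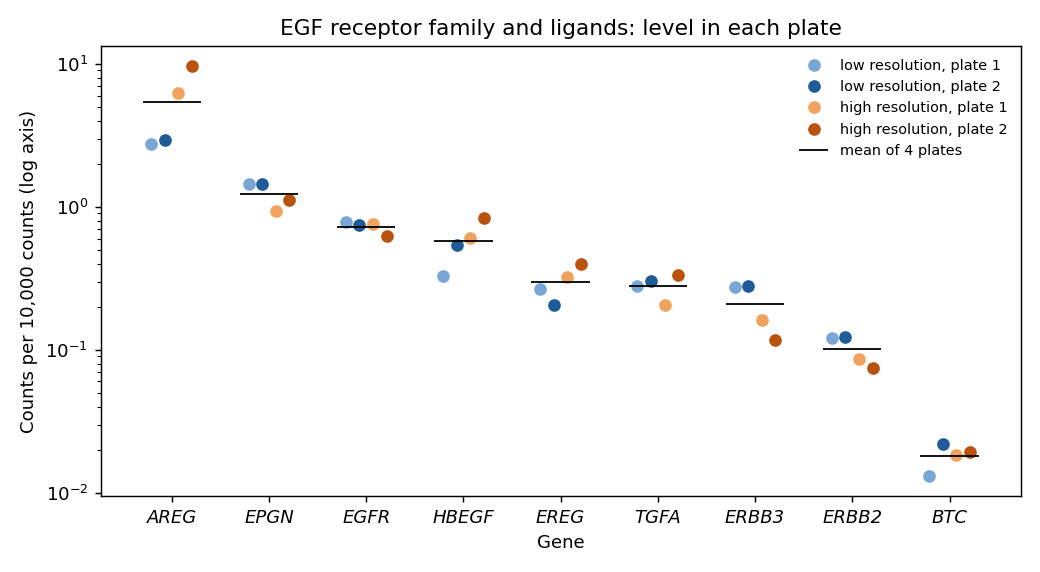
Counts per 10000 counts (log axis) of each of the 9 genes, with 1 point for each of the 4 plates and a line at their mean. AREG is highest in every plate and higher in both high-resolution plates (6.23 and 9.60) than in both low-resolution plates (2.76 and 2.95).

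At full depth 8 of the 9 members reached 20% of cells or more in all plates, the exception being BTC at 4.47% to 7.38%. EGFR was found in 78.4% to 83.6% of cells, AREG in 83.8% to 98.6%, EPGN in 68.0% to 83.8%, ERBB3 in 29.7% to 46.5% and ERBB2 in 25.1% to 34.7%. When each cell was thinned to 10000 UMIs, these shares fell to 43.3% to 55.1% for EGFR, 66.2% to 92.1% for AREG, 48.9% to 62.7% for EPGN, 12.4% to 20.5% for ERBB3 and 7.39% to 12.7% for ERBB2. For comparison, wells with under 2000 features, whose median was 1394.5 to 4700 UMIs, held a UMI of AREG in 23.5% to 70.7% and of EGFR in 6.90% to 23.5%. Whether these wells held an expressing cell was not tested, so a UMI of AREG need not by itself mark one. Counts of AREG were also uneven between cells. The tenth of cells with the most AREG held 29.7% to 50.7% of its UMIs, and the variance-to-mean ratio of thinned counts was 4.21 to 6.32, against a median of 1.15 to 1.18 over 4382 features. The ratio was 1.89 to 2.29 for EPGN and 1.17 to 1.45 for EGFR.

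Whether receptor and ligand were found in the same cell bears on autocrine signaling. EGFR and at least 1 of the 6 ligands were found together in 80.8% (95% exact binomial interval 75.7 to 85.1), 78.6% (73.2 to 83.3), 78.0% (72.8 to 82.6) and 83.3% (78.5 to 87.4) of cells in the 4 plates, intervals that cover counting error only. At 10000 UMIs the shares were 42.6% to 51.6%. Nearly every cell held a ligand UMI (all but 0.341% to 1.72% at full depth and 1.03% to 6.62% at 10000 UMIs), so these shares are close to those of EGFR itself and do not show whether receptor and ligand were found together more or less often than their separate shares would give. For single ligands, the share of cells with both genes was set against the product of the separate shares. EGFR and AREG were found together in 70.4% to 81.6% of cells and EGFR and EPGN in 54.6% to 70.1%, at ratios to the product of 0.999 to 1.03 and 1.02 to 1.04, and AREG leaves little room for a ratio far from 1. The ratio was 1.00 to 1.16 for EREG, 1.02 to 1.10 for TGFA and 0.999 to 1.08 for HBEGF. When 2 UMIs of each gene were required, it was above 1 in every plate for these 5 ligands, at 1.19 to 1.26 for TGFA, 1.09 to 1.15 for HBEGF, 1.06 to 1.12 for EPGN, 1.03 to 1.20 for EREG and 1.01 to 1.14 for AREG. At 10000 UMIs per cell the plates lay on both sides of 1 for AREG, EREG, TGFA and EPGN, and HBEGF was at 1.00 to 1.14.

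Most cells held several ligand transcripts at once. The median cell held UMIs of 3 ligands in 3 plates and of 4 in the second high-resolution plate, and 66.7% to 87.7% of cells held 3 or more. At 10000 UMIs the median was 2 ligands in every plate and 28.6% to 48.5% of cells held 3 or more. The receptor pair ERBB2 and ERBB3 was found together in 17.2%, 18.5%, 11.7% and 12.6% of cells against 7.50% to 16.1% from the product of the separate shares, a ratio of 1.14 to 1.68. At 10000 UMIs the pair was found in 1.76% to 2.44% of cells, or 5 to 7 cells of a plate, and the ratio ran from 0.717 to 1.80. Within the lowest tertile of cells by EMT score the pair was found in 26.8% to 36.1% of cells at full depth, with ratios of 0.971 to 1.35, and in the highest tertile in 2.06% to 3.33%, or 2 to 3 cells of a plate.

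To relate the members to EMT, each cell was given the score that the study used, the enrichment of a mesenchymal list minus that of an epithelial list. ERBB2 and ERBB3 belong to the epithelial list and were left out, so that no member entered the score of any cell, and 62 epithelial and 103 mesenchymal genes were scored. The cells of each plate were divided into 3 equal parts (tertiles) by the score, which is a continuum, with 14 to 64 cells within 0.1 of a dividing score, and the parts are not the phototagged bands. Counts were summed per tertile and plate, and the highest tertile was compared with the lowest by edgeR's quasi-likelihood test with plate as a block. Benjamini-Hochberg adjustment was over the 10595 genes tested that did not enter the score. Of these genes, 40.2% passed an adjusted p of 0.05, 20.4% higher and 19.7% lower. Of the 8 members that passed the filter on low counts, 2 were higher, 5 were lower and EGFR did not pass. BTC was too low to be tested.

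AREG rose with the EMT score in every plate. It stood at 1.62, 1.47, 3.57 and 6.27 counts per 10000 in the lowest tertiles and at 4.30, 4.72, 8.55 and 12.9 in the highest tertiles, a log2 fold change of 1.26 (SE 0.096, adjusted p = 7.0e-07, edgeR), or 2.40-fold. The ranges overlapped between experiments, since the lowest tertile of the second high-resolution plate was above the highest tertiles of both low-resolution plates, and without the plate block the adjusted p was 0.078. The share of cells with an AREG UMI at equal depth rose from 57.1% to 82.5% in the lowest tertiles to 80% to 100% in the highest. EREG rose less, from 0.227, 0.121, 0.324 and 0.311 to 0.372, 0.326, 0.287 and 0.50, by 0.53 on the log2 scale (SE 0.19, adjusted p = 0.041, edgeR). In the first high-resolution plate EREG was lower in the highest tertile. The call was lost without either low-resolution plate or the second high-resolution plate (adjusted p = 0.116, 0.189 and 0.095). It was also lost with DESeq2 (adjusted p = 0.054) and with edgeR without the plate block (adjusted p = 0.18). EREG passed under 8 of 14 settings, with the adjusted p between 0.0011 and 0.189.

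EPGN moved in the opposite direction to its neighbor AREG in every plate, and to its neighbor EREG in 3 plates. It stood at 1.98, 1.92, 1.59 and 1.96 counts per 10000 in the lowest tertiles and at 0.695, 0.617, 0.220 and 0.276 in the highest, so that the tertiles did not overlap, and the log2 fold change was -2.23 (SE 0.20, adjusted p = 2.7e-06, edgeR). At equal depth, cells with an EPGN UMI made up 74.0% to 76.3% of the lowest tertiles and 20% to 41.1% of the highest. HBEGF and TGFA also fell, by 0.99 (SE 0.12, adjusted p = 3.5e-05) and 1.10 (SE 0.15, adjusted p = 7.5e-05) on the log2 scale. HBEGF was 1.44 to 2.45 times and TGFA 1.52 to 2.62 times lower in the highest tertile of each plate. The levels of HBEGF overlapped between tertiles across plates, from 0.409 to 1.24 in the lowest and from 0.233 to 0.506 in the highest.

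The receptors divided in the same comparison. ERBB3 fell the most of all members, from 0.509, 0.503, 0.337 and 0.249 counts per 10000 to 0.0403, 0.0532, 0.0268 and 0.0158, with no overlap and a log2 fold change of -3.65 (SE 0.17, adjusted p = 1.0e-08, edgeR), or 12.5-fold. ERBB2 fell from 0.165, 0.164, 0.111 and 0.127 to 0.0713, 0.0532, 0.0832 and 0.0542, also without overlap, by 1.17 on the log2 scale (SE 0.21, adjusted p = 7.9e-04, edgeR). Both belong to the epithelial list that the study used, so their direction is that of their list. The 3′ end of ERBB2 overlaps MIEN1 on the opposite strand, and whether the counting used strand is not stated. It is therefore not known whether reads in the overlap were assigned to the right gene. MIEN1 itself differed by -0.35 (SE 0.08, adjusted p = 0.0042). EGFR stood at 0.793, 0.673, 0.640 and 0.617 in the lowest and 0.707, 0.761, 0.811 and 0.513 in the highest tertiles, higher in 2 plates and lower in the other 2, with a log2 difference of -0.05 (SE 0.11, adjusted p = 0.74, edgeR).

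**Figure D2:**
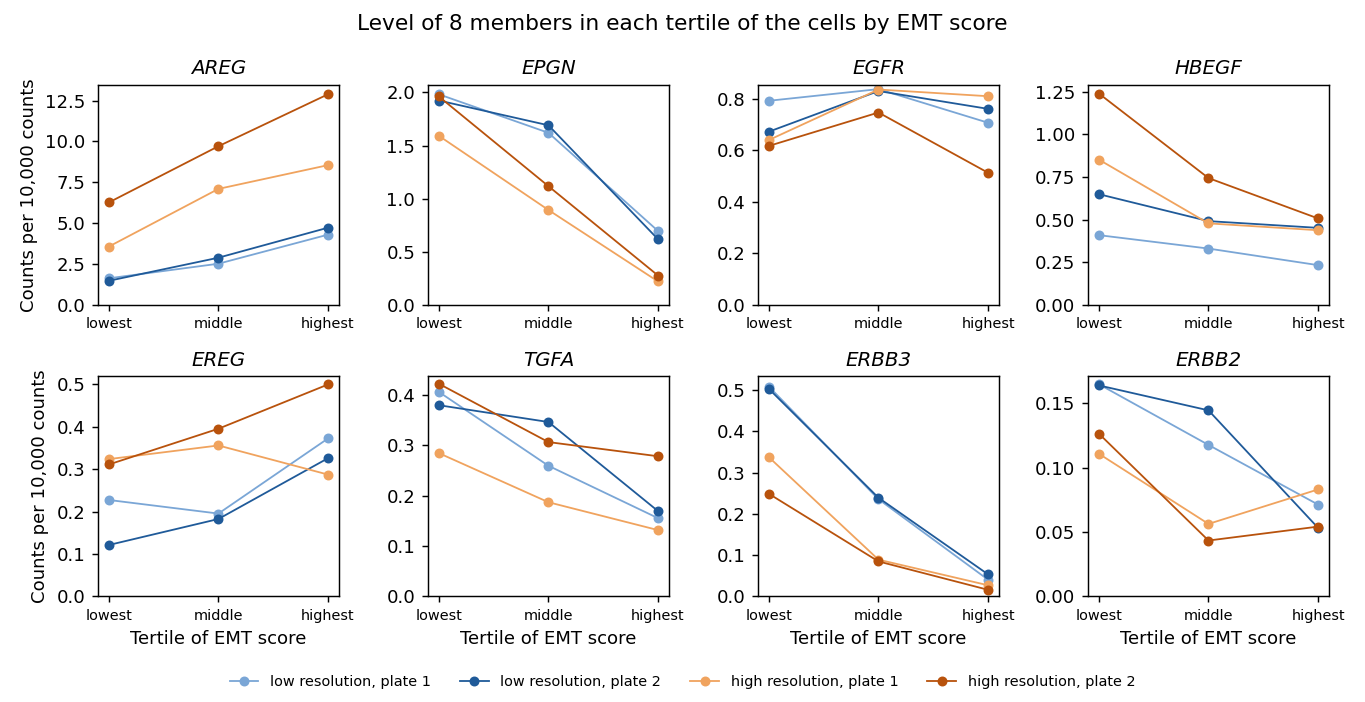
Counts per 10000 counts of 8 members in the lowest, middle and highest tertile of the cells of each plate by EMT score, with 1 line per plate. AREG climbs and ERBB3, EPGN, TGFA and HBEGF decline in all 4 plates, while EGFR shows no common direction.

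Mitochondrial counts moved with the score. Their median share was 31.9% to 34.0% of the counts in the lowest tertiles and 26.1% to 29.4% in the highest, and its Spearman's rho with the score was -0.40 as a mean over plates, while that of the total UMIs was -0.05. With mitochondrial counts left out, the same number of members was called in each direction (2 higher and 5 lower).

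Across single cells, the 7 members that passed between tertiles had a correlation with the score of the same sign as their fold change, but not in the same order of size. The mean of Spearman's rho with the EMT score over the 4 plates was -0.51 for ERBB3 (range -0.55 to -0.48), -0.49 for EPGN (-0.60 to -0.37), 0.42 for AREG (0.31 to 0.48), -0.26 for TGFA, -0.19 for ERBB2 and -0.14 for HBEGF. It was 0.11 for EREG, -0.09 for BTC and 0.01 for EGFR. The cells of a plate share its library and depth differs between them, so these values are descriptions. At 10000 UMIs per cell the values were -0.35 for ERBB3, -0.41 for EPGN and 0.39 for AREG.

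The members were only weakly related to each other. Of 36 pairs, 2 had a mean rho of at least 0.2 in size at equal depth, AREG with ERBB3 and AREG with EPGN, both at -0.21. Given the EMT score, these became -0.09 and -0.05 and no pair reached 0.2 in size, the largest being 0.15. AREG and EREG had a mean rho of 0.13 (range 0.10 to 0.16), which became 0.11 given the score. EGFR had a mean rho between 0.01 and 0.04 with each of the other 8 members. Single plates ran from -0.09 (with TGFA) to 0.17 (with ERBB3). At full depth the means for EGFR ran from -0.01 (with ERBB2) to 0.08 (with AREG). Against single EMT markers, AREG had a mean rho of 0.30 with FN1 (fibronectin) and 0.27 with VIM (vimentin), and of -0.22 with CDH1 (E-cadherin) and -0.23 with EPCAM. EPGN showed the opposite signs, at -0.32, -0.33, 0.23 and 0.26.

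**Figure D3:**
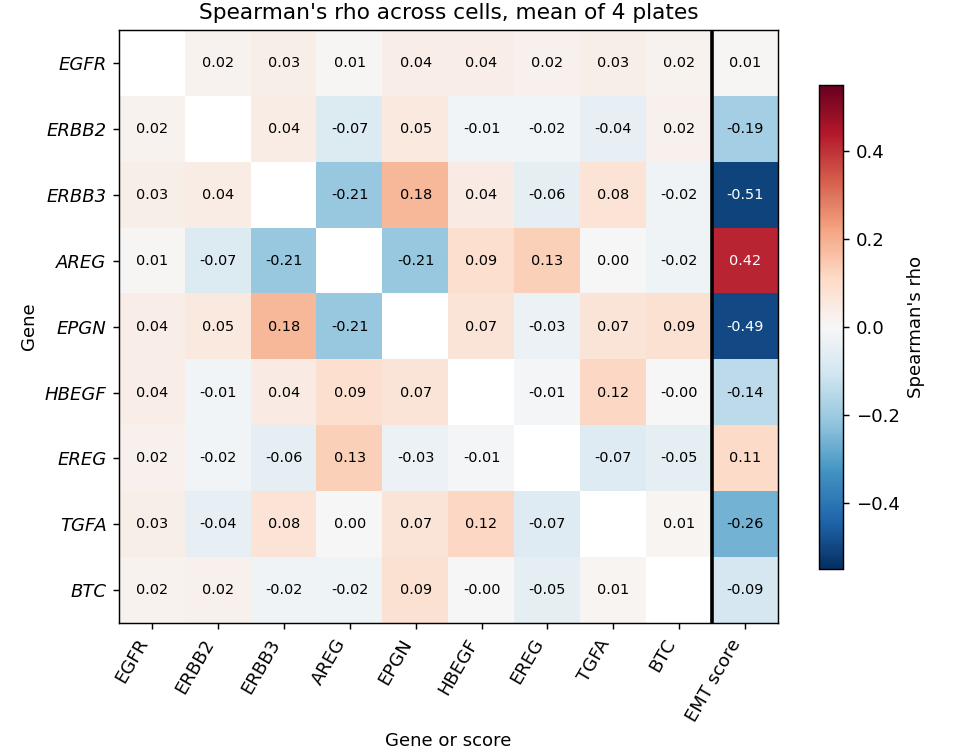
Spearman's rho between members across cells thinned to 10000 UMIs, and of each member at full depth with the EMT score (last column), as the mean of 4 plates. The values among members stay within 0.21 of 0, while ERBB3 (-0.51), EPGN (-0.49) and AREG (0.42) stand out in the column of the score.

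The ligand mixture differed along the score. AREG made up 34.9%, 32.2%, 53.6% and 61.3% of all counts of the 6 ligand genes in the lowest tertiles and 74.5%, 75.0%, 88.8% and 89.1% in the highest. EPGN went from 42.6%, 42.1%, 23.9% and 19.2% to 12.1%, 9.80%, 2.28% and 1.91%. In the lowest tertiles of the low-resolution plates EPGN was the larger share, and in every other tertile of every plate AREG was. The total of the 6 ligands was 4.66, 4.57, 6.65 and 10.2 counts per 10000 in the lowest tertiles and 5.77, 6.30, 9.63 and 14.5 in the highest.

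**Figure D4:**
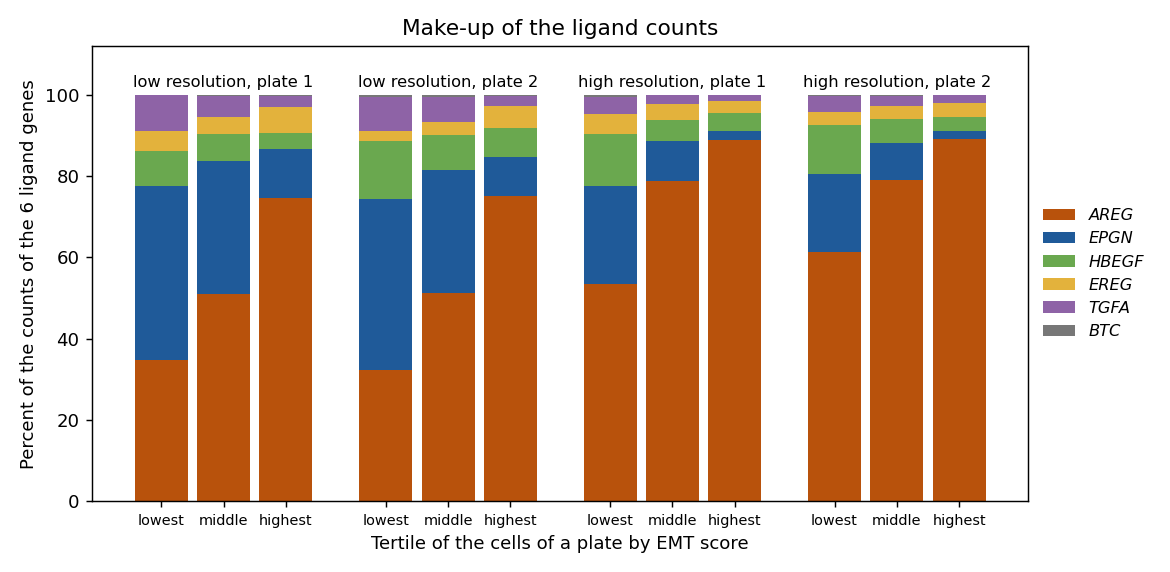
Percent of the counts of the 6 ligand genes taken by each gene, in each tertile of the cells by EMT score and each plate. The AREG share grows from 32.2% to 61.3% in the lowest tertiles to 74.5% to 89.1% in the highest, and the EPGN share shrinks from 19.2% to 42.6% to 1.91% to 12.1%.

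Whether these differences along the score depended on the experiment was tested as an interaction in the same fit, where 3.04% of the 10595 genes passed. Of the 8 members tested, EPGN alone passed. Its level fell 2.85 and 3.12 times from the lowest to the highest tertile of both low-resolution plates, against 7.23 and 7.12 times for the high-resolution ones, a log2 difference of -1.24 (SE 0.15, adjusted p = 2.2e-04, edgeR), and it passed under all 8 settings. For AREG, the ratio of highest to lowest tertile was 2.65 and 3.21 on the low-resolution side, against 2.40 and 2.06 on the other, with a log2 difference of -0.37 (SE 0.12, adjusted p = 0.11, edgeR).

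The high-resolution plates were compared with the low-resolution plates over all cells, 2 against 2, by the same test without a block. Of 12437 genes, 12.4% passed an adjusted p of 0.05, 6.26% higher and 6.18% lower in the high-resolution plates. Of the 9 members, 3 ligands were higher (AREG, EREG and HBEGF), 2 members were lower (ERBB3 and EPGN) and EGFR, ERBB2, TGFA and BTC did not pass. AREG differed the most, with a log2 fold change of 1.50 (SE 0.17, adjusted p = 2.4e-04, edgeR), or 2.83-fold, and it passed under all 13 settings. The levels of AREG in the plates given above did not overlap between the experiments, and AREG made up 54.2% and 54.1% of the ligand counts at low resolution, against 74.9% and 78.0% at high resolution.

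The other differences between experiments were smaller, and those of EREG, HBEGF and EPGN did not pass without certain plates. EREG was higher by 0.66 (SE 0.16, adjusted p = 0.019, edgeR) on the log2 scale, but the adjusted p was 0.083 without the second low-resolution plate and 0.13 without the second high-resolution plate. HBEGF was higher by 0.76 (SE 0.21, adjusted p = 0.036, edgeR), against an adjusted p of 0.18 and a difference of 0.42 without the first low-resolution plate and an adjusted p of 0.29 with DESeq2. ERBB3 was lower, with a log2 fold change of -0.95 (SE 0.18, adjusted p = 0.0056, edgeR), and stayed past the threshold without any 1 of the 4 plates. EPGN was lower by a log2 fold change of -0.45 (SE 0.12, adjusted p = 0.028, edgeR), with adjusted p of 0.063, 0.084 and 0.25 without the first low-resolution, the second low-resolution and the first high-resolution plate. ERBB2 had a difference of -0.57 (SE 0.20, adjusted p = 0.076), EGFR one of -0.11 (SE 0.12, adjusted p = 0.61), TGFA one of -0.07 (SE 0.20, adjusted p = 0.86) and BTC one of 0.13 (SE 0.39, adjusted p = 0.86).

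The experiments were then compared within the lowest and within the highest tertiles, a comparison chosen after the values above were seen. The tertiles were divided within each plate, and equal tertiles were not alike in EMT markers. CDH1 was lower in the high-resolution plates in the lowest tertiles, at 0.946 and 0.902 against 1.29 and 1.18 counts per 10000, and in the highest, at 0.0215 and 0.0249 against 0.0838 and 0.0783. FN1 was higher there in both, at 0.606 and 1.50 against 0.354 and 0.436 in the lowest, and VIM was higher in the highest, at 2.87 and 4.22 against 2.36 and 2.08, whereas EPCAM in the lowest tertiles was also higher, at 2.03 and 1.94 against 1.65 and 1.55. The part of these differences in the results was not tested. AREG was higher in the high-resolution plates in the highest tertiles alone, by 1.26 (adjusted p = 2.2e-04, edgeR), and in the lowest tertiles alone, by 1.69 (adjusted p = 4.2e-04, edgeR). EPGN was lower by a log2 fold change of -1.38 (adjusted p = 1.6e-04, edgeR) in the highest tertiles, and showed -0.11 (adjusted p = 0.62) in the lowest. EREG and HBEGF passed in the lowest tertiles and not in the highest, where the differences were 0.19 and 0.47 (adjusted p = 0.67 and 0.27). Over all cells, depth differed between the experiments, at 29185 and 32135 against 34058 and 39240 median UMIs. With all cells thinned to equal depth, AREG, EREG and HBEGF were again higher and EPGN lower, and ERBB3 had a difference of -0.64 (adjusted p = 0.074). The median mitochondrial shares overlapped, at 29.7% and 31.2% against 29.8% and 28.4%, and with mitochondrial counts left out or without the mitochondrial limit 3 members were higher and 2 lower.

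**Figure D5:**
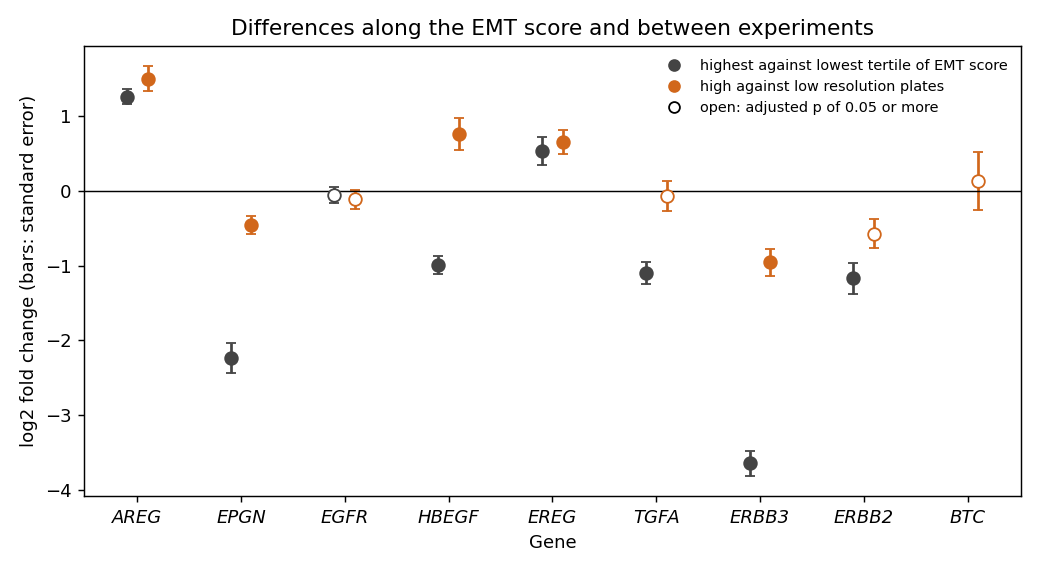
Log2 fold change of each member with its standard error, for the highest against the lowest tertile of EMT score (8 sums of 4 plates) and for high- against low-resolution plates (2 against 2), with open symbols for adjusted p of 0.05 or more. AREG (1.26 and 1.50) and EREG (0.53 and 0.66) are above 0 in both comparisons, ERBB3 (-3.65 and -0.95) and EPGN (-2.23 and -0.45) are below 0 in both, and HBEGF (-0.99 and 0.76) changes sign.

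The other genes of the pathway were followed as 5 lists. Of the remaining receptors and ligands, ERBB4, EGF, NRG2 and NRG4 were each counted with at most 6 UMIs per plate, so that the EGF transcript itself was close to the limit of detection. NRG1, a ligand of ERBB3 and ERBB4, was found in 9.97% to 19.8% of cells and rose by 3.75 on the log2 scale (SE 0.37, adjusted p = 6.1e-06, edgeR) from the lowest to the highest tertile, on 50 to 93 UMIs per plate. Between experiments its difference was -0.11 (adjusted p = 0.83).

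Of 8 genes for ligand release and co-receptors, 7 were tested along the score. Of these, 5 were higher and 2 lower, where 20.4% of all genes were higher and 19.7% lower. Their median log2 fold change was 0.38 against 0.01 over all genes tested. CD44, a hyaluronan receptor that can hold HBEGF at the cell surface, rose by 1.34 (SE 0.10, adjusted p = 6.0e-07, edgeR) and GPC1, a heparan sulfate proteoglycan, by 0.80 (SE 0.12, adjusted p = 2.0e-04). The sheddases ADAM10 and ADAM17, which release the ligands, rose by 0.38 each (adjusted p = 0.019 and 0.016), and both calls were lost with DESeq2 (adjusted p = 0.088 and 0.080), and without the second low-resolution plate or either high-resolution plate (adjusted p of 0.052 to 0.11 and of 0.053 to 0.081). CD9, a tetraspanin that binds the HBEGF precursor, fell by 1.62 (SE 0.09, adjusted p = 4.0e-08, edgeR) and RHBDF1, a regulator of ADAM17, fell by 0.58 (SE 0.10, adjusted p = 7.5e-04, edgeR). Between experiments 1 of the 8 passed, where 12.4% of all genes did, and it was CD44, higher by 0.36 (adjusted p = 0.046).

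Among 18 feedback inhibitors and receptor turnover genes tested along the score, 9 were higher, 1 was lower and 8 did not pass, with a median of 0.30. SOCS3, SPRY4 and SOCS2, inhibitors of cytokine and growth factor signaling, rose the most, by 1.87 (SE 0.27), 1.73 (SE 0.16) and 1.39 (SE 0.24), while EPS15, an endocytosis adaptor, fell by 0.44 (SE 0.11, adjusted p = 0.0055, edgeR). Of 23 adaptors and RAS-MAPK kinases, 3 were higher and 5 lower, where 20.4% of all genes were higher and 19.7% lower. Their median was -0.03. The adaptor SHC1 rose by 1.25 (SE 0.10), NRAS by 0.71 (SE 0.12) and AKT1 by 0.36 (SE 0.09), whereas GAB1, SOS2 and PIK3CB fell by 1.00 (SE 0.28), 0.87 (SE 0.21) and 0.71 (SE 0.16). AKT1 lost its call at equal depth (log2 fold change 0.22, adjusted p = 0.23), and GAB1 without either low-resolution plate (adjusted p = 0.079 and 0.072).

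Of 16 response genes, which are induced by growth factor signaling, 9 were higher along the score, 4 were lower and 3 did not pass, with a median of 0.50. ETV5, PHLDA1 and FOSL1 rose by 1.22 (SE 0.20), 1.04 (SE 0.09) and 1.02 (SE 0.09), and FOS, JUN and IER2 fell by 1.46 (SE 0.17), 0.85 (SE 0.20) and 0.49 (SE 0.11). Between experiments 8 of the 16 were higher and none was lower, with a median of 0.54 against -0.02 over all genes, and FOSL1 was higher by 1.28 (SE 0.15, adjusted p = 2.9e-04, edgeR). The feedback list had 5 higher and 2 lower of 20 in that comparison, and SPRY4, SOCS3 and SOCS2 were higher by 1.59, 1.53 and 1.08. The adaptor list had 1 higher and 3 lower of 24, where 6.26% of all genes were higher and 6.18% lower. In all, 27 of 65 pathway genes tested were higher and 12 were lower along the score, and 15 and 5 of 69 between experiments, against the shares over all genes given above. In the interaction, 6 of the 65 passed with a positive value and 5 with a negative one, where 3.04% of all genes passed.

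For each member found in at least 20% of cells, the genes with the most similar pattern across cells were named by the mean Spearman's rho over the 4 plates at 10000 UMIs, among 4382 features. For AREG these were MT2A (a metallothionein, rho 0.46), NT5E (the surface enzyme CD73, 0.46) and SERPINE2 (a serine protease inhibitor, 0.44). For EPGN they were FXYD3 (a regulator of the sodium pump, 0.38), S100A14 (a calcium-binding protein of the epithelial list, 0.38) and KRT15 (a basal keratin, 0.37). Among the genes most like ERBB3 were FXYD3 (0.37) and AZGP1 (0.35). FXYD3 was thus near the top for both EPGN and ERBB3. Among those most like TGFA were C1orf116 (0.19) and ALDH1A3 (0.18). The other members had no gene above 0.16. The highest included MBNL2 and LAMA3 for EGFR, PPDPF and ATF3 for HBEGF, HPCAL1, SCFD1 and CCL20 for EREG, and PTPRF, ATP6V1B1 and PYGB for ERBB2. These values are weak, and whether they form a pattern was not tested.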

How the data were processed

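MCF10A cells were profiled on 4 plates by SORT-seq, a CEL-seq2 method that primes at the 3′ end. The deposited values are expected counts, that is UMI counts which the authors corrected for UMI sequences drawn more than once (4096 possible), without scaling for depth, and whole UMIs were recovered from all of them within 1e-09. The submitters' processing notes name STAR 2.7.3a, Seurat 4 and hg38, and strand use is not given in the sources used here. Wells were kept by the study's filter, doublets were not called, and fewer cells were left than the study analysed. EMT scores were computed as in GSVA on log-normalized counts (mesenchymal minus epithelial), separately for the 2 plates of each experiment. Rounded expected counts were summed per plate, or per tertile and plate, and tested with edgeR 4.0.16 (R 4.3.3, TMM, filterByExpr, quasi-likelihood test, Benjamini-Hochberg) over the whole table. DESeq2 1.42.0 was an alternative. Labels give replicates, which the study calls biological, but not separate donors or cultures. The p-values between experiments measure the spread between plates. Those of the tertiles and of the interaction, with plate as a block, measure how the tertile difference varied over plates. Thinning drew 10000 UMIs per cell, which left out 2 to 7 cells of a plate. Counts were simulated at a dispersion of 0.02 with no plate effect other than depth, so recovery in the real data can differ. On them the tests recovered 70% of 2-fold and 98.96% of 4-fold changes between experiments. Recovery was 84.69% and 100% between tertiles, and 20.2% and 82% for the interactions. False calls numbered 7, 3 and 7 in the same order. Pathway genes are named as the 3 largest rises and 3 largest falls of a list past an adjusted p of 0.05 between tertiles, with CD44, ADAM17, ERBB4, EGF and NRG1 in any case. Some of the genes most like a member are not reported here. The members and lists were chosen with earlier results of these data known.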

Additional observations from a re-analysis of the deposited data

Results flagged for a closer look

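EPGN was singled out because its difference along the EMT score was not the same in the 2 experiments, by a test of the interaction of tertile and experiment, with a log2 value of -1.24 (edgeR, adjusted p = 2.2e-04), meaning a steeper decline in the high-resolution plates. EPGN passed under all 8 settings, but all of them scored each experiment apart, so the tertiles need not cover equal ranges of EMT. Of 65 pathway genes tested, 6 passed with a positive and 5 with a negative interaction value, and 3.04% of all genes passed. The sign is that of the difference along the score, high minus low resolution, and not of the level in a plate.

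Among the genes named by rule, the test passed for JUN at 1.15 (adjusted p = 0.0028), SOS2 at 1.14 (adjusted p = 0.041), FOS at -0.85 (adjusted p = 0.036) and CD44 at -0.45 (adjusted p = 0.047). The other pathway genes that passed are named here after their values were seen. These were the phosphatase genes DUSP5 at 1.30 (adjusted p = 6.6e-04) and DUSP6 at -0.95 (adjusted p = 0.0068), which act on MAP kinases, PIK3R1, a regulatory subunit of PI3K, at -1.22 (adjusted p = 5.8e-04), and the response genes EGR1 at 1.00 (adjusted p = 0.024), ATF3 at 0.80 (adjusted p = 0.041) and MCL1 at 0.52 (adjusted p = 0.042). STAT3, a transcription factor, showed -0.62 (adjusted p = 0.046). All of these are edgeR values.

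DUSP5 and PIK3R1 passed without any 1 plate and with DESeq2, and lost their calls without the plate block (adjusted p = 0.071 and 0.10). The other 9 calls were lost in 3 to 7 of the alternatives that gave them an adjusted p. Leaving out the second low-resolution plate ended all 9 of them (adjusted p of 0.070 to 0.48 for DUSP6 and FOS, the lowest and highest), and the first low-resolution plate all but FOS (0.055 to 0.29 for JUN and EGR1). Without the first high-resolution plate SOS2, STAT3, FOS, EGR1 and ATF3 did not pass (0.064 to 0.23 for SOS2 and ATF3), and without the second CD44, SOS2, STAT3 and MCL1 did not (0.060 to 0.35 for STAT3 and MCL1). Groups of 2 plates were too small for a check of single plates that stand apart.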

How the results depend on the processing

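The number of members called between tertiles stayed between 5 and 7 of 8 under all alternatives (6 to 7 without 1 plate). Between experiments it was 5, and 3 to 4 without 1 plate, where the lone plate of a group is assumed to vary like the others. It was 2 in the highest tertile alone, a comparison chosen after seeing the data. The interaction called 1 member, 2 with the mean z-score in place of the enrichment score, and 1 to 2 without 1 plate. Over all genes, 1547 were called between experiments, 957 at 10000 UMIs, 622 in the highest tertile alone and 982 to 1172 without 1 plate. Between tertiles 4255 were called, 2532 when thinned to 10000 UMIs after scoring and 2535 when scored on thinned cells, where fewer genes were tested. The interaction called 322 genes, 60 with DESeq2 and 51 to 314 without 1 plate.

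The plates carry replicate numbers. Over 12437 genes, the deviations of the plates numbered 1 from their group means had a correlation of -0.024. This single value cannot tell whether plates of the same number were handled together. With the replicate block, 5 members and 2023 genes were called between experiments. Without the plate as replicate block, 5 members and 2801 genes were called between tertiles, and 26 genes for the interaction.

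The values that changed sign belonged to genes that did not pass. Leaving out 1 plate at a time, the difference between experiments ran from -0.249 to 0.0314 for EGFR, from -0.453 to 0.237 for TGFA and from -0.212 to 0.593 for BTC, and that between tertiles from -0.159 to 0.0296 for EGFR. In the highest tertile alone, ERBB2 showed 0.138 and TGFA 0.364 between experiments, and BTC showed -0.0029 without the mitochondrial limit. EGFR turned without the second high-resolution plate in both comparisons and without the first low-resolution plate between tertiles, TGFA without the second low-resolution or the first high-resolution plate, and BTC without the first low-resolution plate. The number of pairs of members with a rho of at least 0.2 in size was 2, 4 at full depth, 0 given the EMT score and 1 to 2 without 1 plate. EGFR with any ligand was found in 80.2% of cells as a mean, 59.8% when 2 UMIs were required and 46.4% at 10000 UMIs (79.1% to 80.9% without 1 plate). At that depth 5 members rather than 8 reached 20% of cells or more in all plates. At that depth BTC was too low to be tested between experiments. The cause of the changes was not tested.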
